A study of Mus musculus with 8 samples.

Results

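Decorin (Dcn), lumican (Lum), biglycan (Bgn), fibromodulin (Fmod), periostin (Postn), Sparc, tenascin C (Tnc), fibronectin (Fn1), elastin (Eln) and fibrillin (Fbn1) are glycoproteins and proteoglycans of the dermal matrix. These 10 genes were followed by symbol in RNA-seq of wild type and JunB cKO mice, among 26457 gene loci in unperturbed keratinocytes, 47990 in skin after hair plucking and 46726 in wounds. After hair plucking, all 10 genes were lower in JunB cKO skin, 5 of them at least 2-fold, beside 18.8% of expressed loci. Expressed loci are those that reached 1 FPKM, a level per transcript length, in one genotype or both. Of 13 fibroblast markers, 12 were lower after plucking as well, and relative to their median 0 of the 10 genes were past 2-fold. In wounds, none of the 10 differed 2-fold between the genotypes, beside 9.03% of expressed loci that were higher and 7.57% that were lower. In unperturbed keratinocytes 4 of them were close to the detection limit, and 5 were higher and 1 was lower by 2-fold or more in JunB cKO, beside 37.7% and 2.17% of all loci. Among the 7 genes that were expressed there, 2 were higher and 1 was lower by 2-fold or more, beside 22.1% and 2.37% of expressed loci. Once the level of sensory receptor genes was subtracted, none was higher by 2-fold or more, with Bgn just inside that limit.

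In skin, matrix proteins of this kind are secreted mainly by the fibroblasts of the dermis. Small leucine-rich proteoglycans (Dcn, Lum, Bgn and Fmod) coat collagen fibrils and influence their width and spacing. Matricellular proteins (Postn, Sparc and Tnc) tune the contact of cells with the matrix and are known for their abundance in growing and healing tissue. Fibronectin forms fibrils that cells grip and that make up much of the early wound matrix, whereas elastin and the microfibrils of fibrillin make up elastic fibres.

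JunB cKO mice lack Junb in basal epidermal cells, since the Cre recombinase is driven by the K14 promoter, so that the fibroblasts that make most of the matrix are not the cells targeted. All mice were of the strain C57BL/6, and the labels give the genotypes as JunB +/+ and JunB -/-. The labels list 8 libraries. The unperturbed pair, 1 library per genotype, was untreated and is labelled as keratinocytes isolated with trypsin. For unperturbed mice the paper speaks of dorsal skin and, for the Wnt genes, of primary epidermal progenitor cells. The second pair, again 1 library per genotype, is a skin biopsy 4 days after hair plucking, although its tissue label reads keratinocyte. The wounds were sampled at day 30 with 2 libraries per genotype, which the table reports as 1 value per genotype. RNA of 3 samples of a group was pooled before each library, and the unperturbed and plucked mice were adults by the ages in the paper. Each value below is therefore a single value without a spread between samples, no test between genotypes could be made, and 95% intervals cover counting error only.

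Values are FPKM (fragments per kilobase of transcript, scaled to the mapped fragments of a library), a level corrected for transcript length. Ratios are log2((JunB cKO + 0.1)/(wild type + 0.1)), so that -1 and 1 mark a 2-fold difference, and the intervals were calculated from estimated reads without the added 0.1. The deleted gene itself, Junb, was listed at 268 FPKM in wild type and 31.4 FPKM in JunB cKO keratinocytes, at 40.8 and 11.7 FPKM after plucking, and at 33.4 and 15.4 FPKM in wounds. Read numbers were estimated from the steps between the lowest values. By this estimate 1 FPKM on 1 kilobase stood for 13.3 reads in wild type and 3.92 in JunB cKO keratinocytes, for 12.9 and 10.1 after plucking, and for 34.1 and 31.4 in wounds. The plucked wild type value rests on 1 locus and is the least certain. Keratinocyte markers were high in the unperturbed pair (Krt5 2592 and 2690 FPKM, Krt14 1212 and 1113 FPKM), and fibroblast markers were low there (Col1a1 2.66 and 2.58 FPKM, Col3a1 3.63 and 1.87 FPKM). In plucked skin and wounds Col1a1 was high, at 1168 FPKM in plucked wild type skin and 2506 FPKM in wild type wounds. The plucked pair thus held dermal RNA as well, against its keratinocyte tissue label.

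Of the 10 genes, 6 have a promoter in the RefSeq table of GRCm38.p6, with 8 entries in all. No entry was at hand for Dcn, Lum, Fn1 and Eln. The 100 bases before the transcript start are shown for 3 genes, one with a TATA box, one with GC boxes and one with neither. Capitals mark TATAAA in Postn (chr3:54361007-54361106, plus strand, 26 bases before the start) and CCGCCC, in part overlapping, in Bgn (chrX:73483501-73483600, plus strand), and Sparc (chr11:55420081-55420180, minus strand) has no capitals.
Postn: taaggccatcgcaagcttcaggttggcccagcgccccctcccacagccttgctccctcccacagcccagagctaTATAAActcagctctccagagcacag
Sparc: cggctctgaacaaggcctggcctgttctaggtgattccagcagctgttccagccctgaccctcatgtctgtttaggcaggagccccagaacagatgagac
Bgn: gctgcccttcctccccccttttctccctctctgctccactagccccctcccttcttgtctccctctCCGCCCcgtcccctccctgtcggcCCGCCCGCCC
Over the whole window of 300 bases, TATAAA was present in 3 of the 8 entries, from 2 genes, and in 8.32% of 32851 promoters of the table. TATAAA was searched on the strand of the gene only, and the GC box and AP-1 motif below on both strands. The 2 entries of Tnc overlap and hold the same TATAAA, so that it is counted for each of them. The GC box GGGCGG, which reads CCGCCC on the other strand, was present in 4 of the 8, from 3 genes, and in 35.7% of the table. The AP-1 motif TGACTCA, the sequence that Jun and Fos dimers are known to bind, was present in 0 of the 8 and in 5.2% of the table, which says only that these letters are not in this window.

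**Figure D1:**
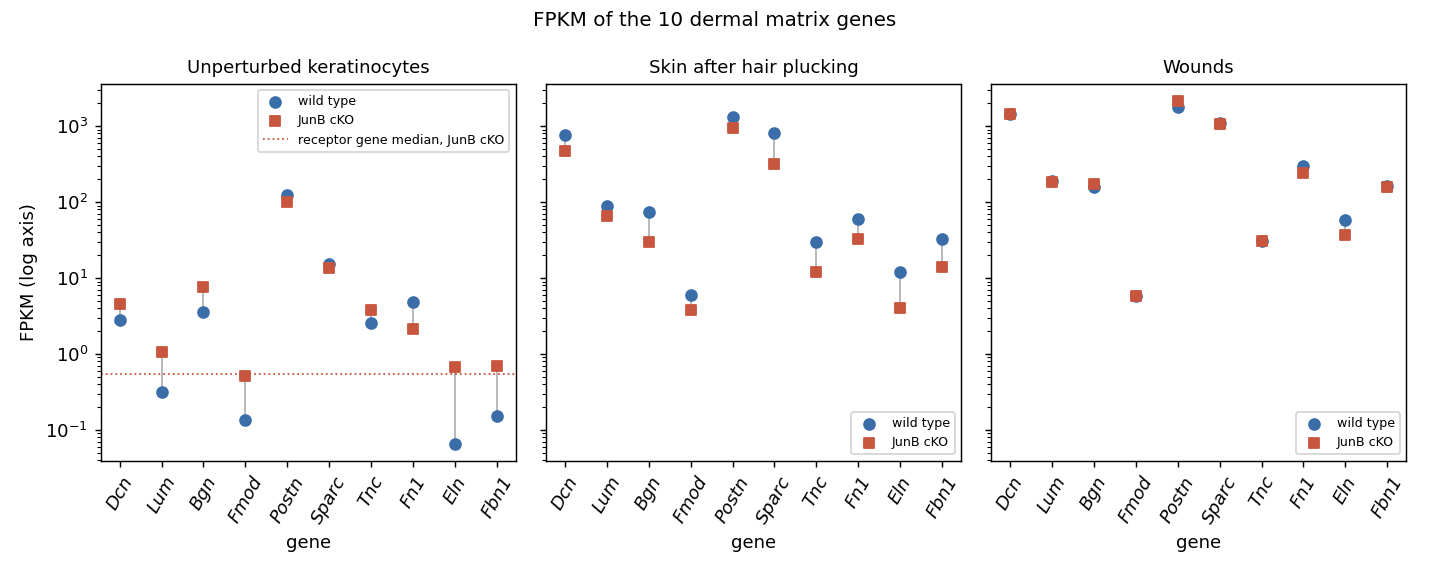
FPKM (log axis) of the 10 genes in wild type (circles) and JunB cKO (squares), 1 value per genotype, in unperturbed keratinocytes, plucked skin and wounds. The squares lie below the circles for all 10 genes after plucking and nearly on them in wounds, and in unperturbed keratinocytes Lum, Fmod, Eln and Fbn1 of JunB cKO lie near the dotted line, the median of the sensory receptor genes in that library (0.543 FPKM).

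After hair plucking, the small leucine-rich proteoglycans were lower in JunB cKO skin, Bgn most of all. Dcn, which binds collagen and growth factors, was listed at 754 FPKM in wild type and 475 FPKM in JunB cKO skin, a log2 ratio of -0.67 (95% interval -0.70 to -0.63). It ranked 101 of 46036 symbols in wild type and 171 in JunB cKO, so that it remained among the most abundant transcripts of both libraries. Bgn, the closest relative of Dcn in the family, was at 73.0 and 29.9 FPKM, which is 2.44-fold lower in JunB cKO (log2 ratio -1.29). Lum, which binds to collagen fibrils and is also known from the cornea, was at 88.9 and 65.7 FPKM, with the smallest difference of the 10 genes (log2 ratio -0.44). Fmod, which shares its site on collagen with Lum, was the lowest of the 4 at 6.00 and 3.75 FPKM (log2 ratio -0.67).

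Dcn and Fmod differed by the same factor, and the level of Dcn was 126 times that of Fmod in wild type and 127 times in JunB cKO skin. By contrast, Dcn exceeded Bgn 10.3-fold in wild type and 15.9-fold in JunB cKO.

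Among the matricellular genes, Sparc and Tnc differed more than Postn. Postn, which is known for a part in collagen crosslinking, was the highest of the 10 genes at 1322 FPKM in wild type and 949 FPKM in JunB cKO (log2 ratio -0.48, interval -0.50 to -0.46). Sparc, a calcium-binding glycoprotein that acts in collagen assembly, was at 819 and 318 FPKM (log2 ratio -1.36, interval -1.40 to -1.33) and ranked 94 and 276. The table lists Sparc a second time over the same span, at 511 and 206 FPKM, with a log2 ratio of -1.31. How reads were divided between both loci is not known, but the ratio was alike at each. Tnc, a large hexameric glycoprotein that loosens cell adhesion, was at 29.8 and 11.9 FPKM, 2.49-fold lower in JunB cKO (log2 ratio -1.31). The level of Sparc relative to Postn was 0.619 in the wild type library and 0.335 in that of JunB cKO.

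Fibronectin and both elastic fibre genes were also lower. Fn1 was at 59.9 FPKM in wild type and 32.3 FPKM in JunB cKO (log2 ratio -0.89, interval -0.96 to -0.83), just inside the 2-fold limit. Eln, the elastic core protein, had the largest listed difference of the 10 genes at 12.0 and 4.07 FPKM, 2.93-fold lower in JunB cKO (log2 ratio -1.53, interval -1.81 to -1.30). Fbn1, the scaffold protein of microfibrils, was at 33.1 and 13.9 FPKM (log2 ratio -1.24). Some loci reach beyond the gene and over an antisense gene, namely that of Tnc in all 3 conditions and those of Eln and Fn1 after plucking and in wounds. The locus of Bgn ends beyond the gene in keratinocytes and after plucking, but not in wounds. All these values are uncertain to that extent.

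All 10 genes thus had a lower value in JunB cKO after plucking, and Bgn, Sparc, Tnc, Eln and Fbn1 were past 2-fold. Among 16932 expressed loci, 18.8% were lower by 2-fold or more and 21.3% higher by 2-fold or more, and 48.7% had any lower value. The median log2 ratio was -1.07 over the 10 genes and 0.03 over these loci. Summed over the 10 genes, the level was 3197 FPKM in wild type and 1904 FPKM in JunB cKO.

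Markers of several cell types moved with these genes. Of 13 fibroblast markers, 12 were lower in JunB cKO, 9 of them at least 2-fold, with a median log2 ratio of -1.15 and a summed level of 4482 FPKM in wild type and 1416 FPKM in JunB cKO, and none at 0. Col1a1 was at 1168 and 527 FPKM, Col1a2 at 525 and 245 FPKM, and Col3a1 at 2559 and 535 FPKM. Thy1 was the exception among the 13, at 32.7 and 40.8 FPKM. Relative to the fibroblast marker median, the 10 matrix genes had a median of 0.081, and 0 of them were past 2-fold. Postn lay above that median by 0.67, Lum by 0.71 and Dcn by 0.48, whereas Eln had -0.38 and Sparc -0.21. In bulk samples, fewer cells of a type and less RNA per cell cannot be told apart.

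Other cell types differed as well. Of the skeletal muscle markers, 7 of 7 in the table were at least 2-fold lower (Ckm 21.7 and 2.15 FPKM, Myh4 16.2 and 2.43 FPKM), and their sum was 278 FPKM in wild type and 32.3 FPKM in JunB cKO. Leukocyte markers were at least 2-fold lower for 5 of 6 expressed ones (Ptprc 25.7 and 10.3 FPKM; summed 98.9 and 32.7 FPKM, with 2 of 8 at 0 in each genotype), and adipocyte markers for 5 of 8 (summed 201 and 69.0 FPKM). The first adipocyte marker of the list, Adipoq, was at 8.76 and 17.4 FPKM, Plin1 was at 6.86 and 3.45 FPKM, both just inside 2-fold, and Retn, at 3.46 FPKM in JunB cKO, was listed at 0 in wild type. Endothelial markers had a median log2 ratio of -0.33 (summed 85.9 and 62.4 FPKM), and myofibroblast and pericyte markers of -0.41 (summed 226 and 171 FPKM). Keratinocyte markers had a median of 0.27 (summed 10899 and 12255 FPKM), with 2 of 12 at least 2-fold higher. The part of tissue composition in the values of the 10 matrix genes was not tested.

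**Figure D2:**
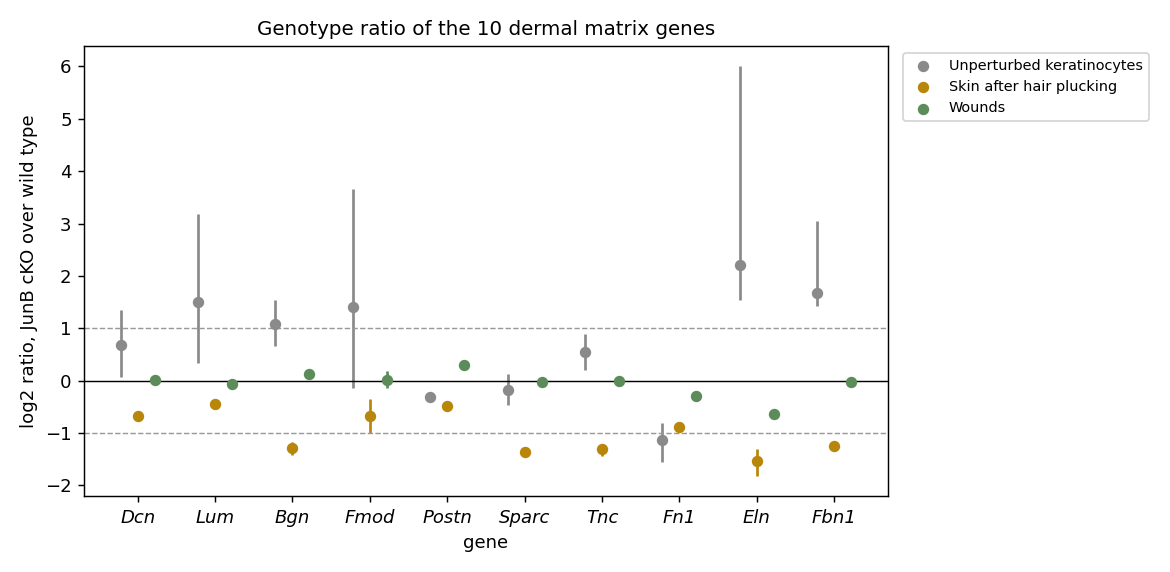
Log2 ratio of JunB cKO over wild type for the 10 genes in 3 conditions. Points are ratios with 0.1 FPKM added to both values, vertical lines are 95% intervals from estimated reads without that addition and cover counting error only, and dashed lines mark 2-fold; the plucked points all lie below 0, the wound points between -0.64 and 0.29, and the unperturbed intervals are widest for Eln, Fmod and Lum.

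In wounds at day 30, most of the 10 genes had nearly equal values in both genotypes. Dcn was at 1432 FPKM in wild type and 1450 FPKM in JunB cKO (log2 ratio 0.02) and ranked 48 and 46 of 46048 symbols. Sparc was at 1085 and 1069 FPKM (log2 ratio -0.02), and Tnc at 30.9 and 30.7 FPKM (log2 ratio -0.01). Fmod was at 5.79 and 5.87 FPKM (log2 ratio 0.02), and Fbn1 at 160 and 158 FPKM (log2 ratio -0.03). Lum, at 190 and 182 FPKM, had a log2 ratio of -0.06, and Bgn, at 158 and 172 FPKM, a log2 ratio of 0.12.

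Only Postn, Fn1 and Eln lay further from equality in wounds. Postn was the highest of the 10 at 1762 FPKM in wild type and 2157 FPKM in JunB cKO (log2 ratio 0.29). Fn1 was at 295 and 241 FPKM (log2 ratio -0.29). Eln had the largest difference at 57.4 and 36.8 FPKM, 1.56-fold lower in JunB cKO (log2 ratio -0.64, interval -0.69 to -0.59). By the listed values, Eln was thus the gene furthest below wild type in both kinds of skin sample. After plucking, however, its counting interval overlapped those of Bgn, Sparc, Tnc and Fbn1. Fbn1, the partner of Eln in elastic fibres, exceeded Eln 2.80-fold in wild type and 4.28-fold in JunB cKO wounds.

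In wounds 4 of the 10 genes were higher, 6 were lower and 0 were past 2-fold, and the median log2 ratio was -0.02, beside 0.02 over 17787 expressed loci. Of these loci, 9.03% were higher and 7.57% were lower by 2-fold or more. The sum of the 10 genes was 5176 FPKM in wild type and 5503 FPKM in JunB cKO. Fibroblast markers had a median log2 ratio of 0.10, with 0 of 13 past 2-fold (Col1a1 2506 and 2673 FPKM, Col3a1 5055 and 7735 FPKM; summed 9494 and 12350 FPKM). Medians of the other marker lists were 0.07 for keratinocytes, 0.14 for muscle, 0.21 for myofibroblasts and pericytes, 0.27 for leukocytes, 0.36 for endothelium and 0.60 for adipocytes.

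In unperturbed keratinocytes, Postn was the only one of the 10 genes at a high level. It was at 123 FPKM in wild type and 99.3 FPKM in JunB cKO (log2 ratio -0.31, interval -0.40 to -0.22), ranked 389 and 452 of 26340 symbols, and made up 80.6% and 74.2% of the FPKM summed over the 10 genes. Sparc followed at 15.1 and 13.4 FPKM (log2 ratio -0.17), with a counting interval that includes 0 (-0.47 to 0.12). The level of Postn was 43.7 times that of Dcn in wild type and 21.6 times in JunB cKO keratinocytes, whereas in plucked skin it was 1.75 and 2.00 times, and in wounds 1.23 and 1.49 times.

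Fn1 and Bgn differed 2-fold in opposite directions. Fn1 was at 4.85 FPKM in wild type and 2.15 FPKM in JunB cKO keratinocytes (log2 ratio -1.14, interval -1.56 to -0.81, from about 536 and 70 reads). Bgn was at 3.54 and 7.61 FPKM (log2 ratio 1.08, interval 0.65 to 1.54, from about 114 and 72 reads). Dcn, at 2.81 and 4.6 FPKM, had a log2 ratio of 0.69, and Tnc, at 2.56 and 3.78 FPKM, of 0.54, both within 2-fold.

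The other 4 genes were near the detection limit. Lum was at 0.316 FPKM in wild type and 1.07 FPKM in JunB cKO (log2 ratio 1.49), which corresponds to about 10 reads in each library. Fmod was at 0.133 and 0.520 FPKM (log2 ratio 1.41), or about 6 reads in each, and its counting interval includes 0 (-0.14 to 3.67). Eln was at 0.0661 and 0.672 FPKM (log2 ratio 2.22), or about 3 and 10 reads, and Fbn1 at 0.152 and 0.703 FPKM (log2 ratio 1.67), or about 24 and 33 reads. Equal read numbers give unequal FPKM here, since the reads behind 1 FPKM differed 3.39-fold between the libraries, with more of them in wild type.

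Sensory receptor genes, which are known from nose and tongue, had a median of 0 FPKM in wild type and 0.543 FPKM in JunB cKO keratinocytes over 1487 loci. Lum, Fmod, Eln and Fbn1 in JunB cKO were within 2 times that value. With this median subtracted from the JunB cKO values, 0 of the 10 genes were higher by 2-fold or more and 2 were lower, namely Fn1 (log2 ratio -1.53) and Fmod (log2 ratio -1.22), and Bgn came to 0.98. Fmod in JunB cKO lay below the subtracted median and was set to 0, so that its ratio rests on the added 0.1 FPKM.

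In all, JunB cKO keratinocytes had the higher value for 7 genes and the lower value for 3. Of the 10 genes, 7 reached 1 FPKM in a genotype, and Fmod, Eln and Fbn1 did not. Lum, Bgn, Fmod, Eln and Fbn1 were higher by 2-fold or more, 5 of 10 beside 37.7% of all 26457 loci, and of the 7 expressed genes Lum and Bgn were, beside 22.1% of the 15973 expressed loci. Fn1 was lower by 2-fold or more, beside 2.37% of expressed and 2.17% of all loci, and came to -0.96, inside the limit, after centring on loci that both genotypes expressed. The median log2 ratio was 0.89 over the 10 genes and -0.04 over the expressed loci. The 10 genes summed to 153 FPKM in wild type and 134 FPKM in JunB cKO. Fibroblast markers had a median log2 ratio of 0.34 over the 8 of 13 that were expressed (summed 32.1 and 37.7 FPKM, none at 0), whereas keratinocyte markers had -0.23 over 12 of 12 (summed 13678 and 14493 FPKM). The median was 0.36 over 4 myofibroblast and pericyte markers, 0.45 over 5 leukocyte markers and -1.10 over 3 adipocyte markers, and 1 marker each of muscle (Mylpf, log2 ratio 0.40) and endothelium (Pecam1, 0.0776 and 1.12 FPKM) was expressed.

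**Figure D3:**
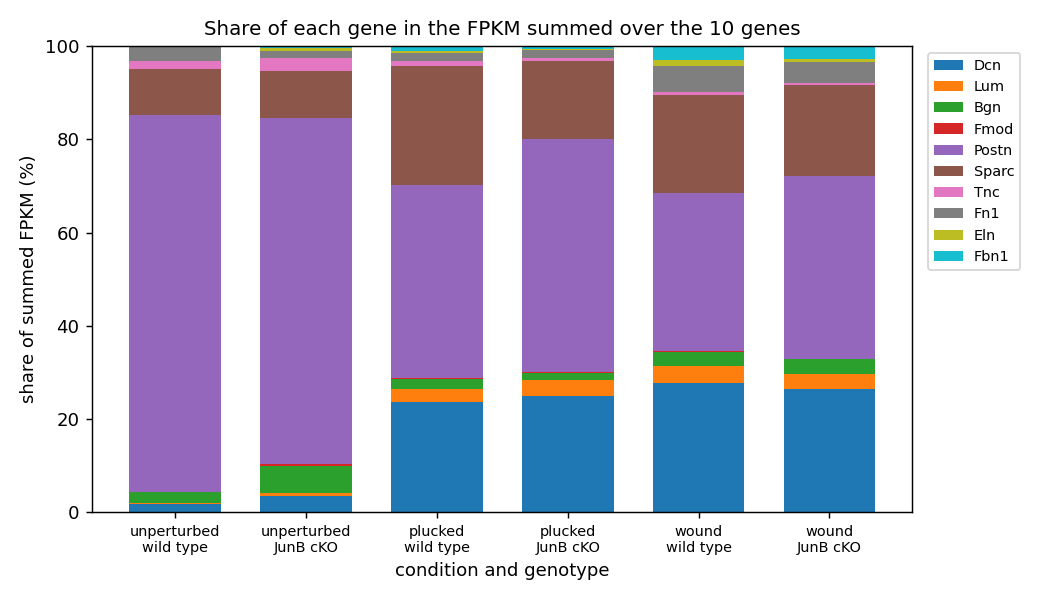
Share (%) of each of the 10 genes in the FPKM summed over them, for each condition and genotype, 1 value each. Postn fills most of both unperturbed columns (80.6% and 74.2%), and Postn, Dcn and Sparc fill most of the plucked and wound columns.

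The share of each gene among the 10 does not depend on the scaling of a library. In plucked skin Postn made up 41.4% (wild type) and 49.9% (JunB cKO) of the summed FPKM, Dcn 23.6% and 24.9%, and Sparc 25.6% and 16.7%. In wounds Postn made up 34.0% and 39.2%, Dcn 27.7% and 26.3%, and Sparc 20.97% and 19.4%. The 4 small leucine-rich proteoglycans together held 28.8% and 30.2% after plucking and 34.5% and 32.9% in wounds. Fn1, Eln and Fbn1 together held 3.28% and 2.64% after plucking and 9.90% and 7.92% in wounds. In both kinds of skin the share of Postn was higher and the shares of Sparc, Tnc, Fn1, Eln and Fbn1 were lower in JunB cKO than in wild type, and each of these rests on 1 value per genotype.

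The 3 tables were normalized separately, so levels in different tables are set side by side without a comparison. In wild type, Fn1 was at 59.9 FPKM after plucking and 295 FPKM in wounds, Fbn1 at 33.1 and 160 FPKM, and Eln at 12.0 and 57.4 FPKM. Tnc was at 29.8 and 30.9 FPKM, and Fmod at 6.00 and 5.79 FPKM. Within a table, Fn1 exceeded Tnc 2.01-fold in plucked wild type skin and 9.52-fold in wild type wounds.

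Another 74 matrix genes of the same families, of which Dpt and Mfap5 also stand among the fibroblast markers, give the context of the 10. After plucking, 58 were expressed, 44 were lower in JunB cKO and 14 higher, 17 past 2-fold lower and 2 past 2-fold higher, and the median log2 ratio was -0.55. Of all expressed loci there, 18.8% were past 2-fold lower and 21.3% past 2-fold higher. In wounds, 61 were expressed, 28 were lower and 33 higher, 0 past 2-fold lower and 4 past 2-fold higher, with a median of 0.07. The shares of expressed loci in wounds were 7.57% and 9.03%. In unperturbed keratinocytes, 40 were expressed, 0 were past 2-fold lower and 15 past 2-fold higher, with a median of 0.06, beside 2.37% and 22.1% of expressed loci. The largest increase of each list there was at a low level in JunB cKO, where the receptor gene median was 0.543 FPKM. These genes were Nyx (1.17 FPKM), Mfap4 (1.22 FPKM), Spock1 (1.53 FPKM) and Bcan (2.58 FPKM).

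By role, the other small leucine-rich proteoglycans were lower after plucking in 8 of 8 measured genes, 1 of them at least 2-fold. Ogn (osteoglycin) was at 28.4 and 8.76 FPKM, and Aspn (asporin), the highest of them, at 62.6 and 42.8 FPKM. Of the other elastic fibre and microfibril genes, 15 of 20 were lower, 6 at least 2-fold. Lox, the lysyl oxidase that crosslinks elastin and collagen, was at 22.3 and 5.34 FPKM, Efemp1, a fibulin, at 61.1 and 50.03 FPKM, and Emilin1, an elastic fibre interface protein, at 1.33 and 2.31 FPKM. Lox, like Eln, was thus past 2-fold, and in wounds Lox was at 77.3 and 73.3 FPKM.

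Of the other matricellular and adhesive glycoproteins, 17 of 24 were lower after plucking, 8 at least 2-fold, and 2 were at least 2-fold higher. Tgfbi, a relative of Postn, was the highest at 128 and 102 FPKM, Wisp2 was at 4.77 FPKM and listed at 0, and Wisp3 was listed at 0 and at 1.02 FPKM. Ecm1, the other gene at least 2-fold higher, was at 23.9 and 56.0 FPKM, and Thbs1, among the 8 lower ones, at 109 and 14.3 FPKM. Of the other proteoglycans, 4 of 6 were lower, 2 at least 2-fold. Srgn (serglycin), the proteoglycan of blood cell granules, was at 22.5 and 8.005 FPKM, Agrn (agrin), a basement membrane proteoglycan, at 47.8 and 36.9 FPKM, and Prg4 (lubricin) at 1.83 and 2.73 FPKM.

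In wounds the 4 genes at least 2-fold higher lay in 3 of these lists. They were Kera (keratocan), at 1.94 and 5.81 FPKM, Matn4 (matrilin), at 0.549 and 2.69 FPKM, Acan (aggrecan), at 0.684 and 1.65 FPKM, and Chad (chondroadherin), at 0.462 and 1.20 FPKM. Podn (podocan), at 11.6 and 22.3 FPKM, was just inside the limit. Aspn was at 200 and 154 FPKM, Efemp2 at 25.8 and 42.1 FPKM, Dpt (dermatopontin) at 184 and 161 FPKM, and Srgn at 77.4 and 115 FPKM. In unperturbed keratinocytes the highest of each list were Aspn (6.29 and 6.24 FPKM), Ltbp4 (32.7 and 31.6 FPKM), Tgfbi (173 and 137 FPKM) and Agrn (41.1 and 33.1 FPKM), all within 2-fold, as Postn and Sparc were.

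**Figure D4:**
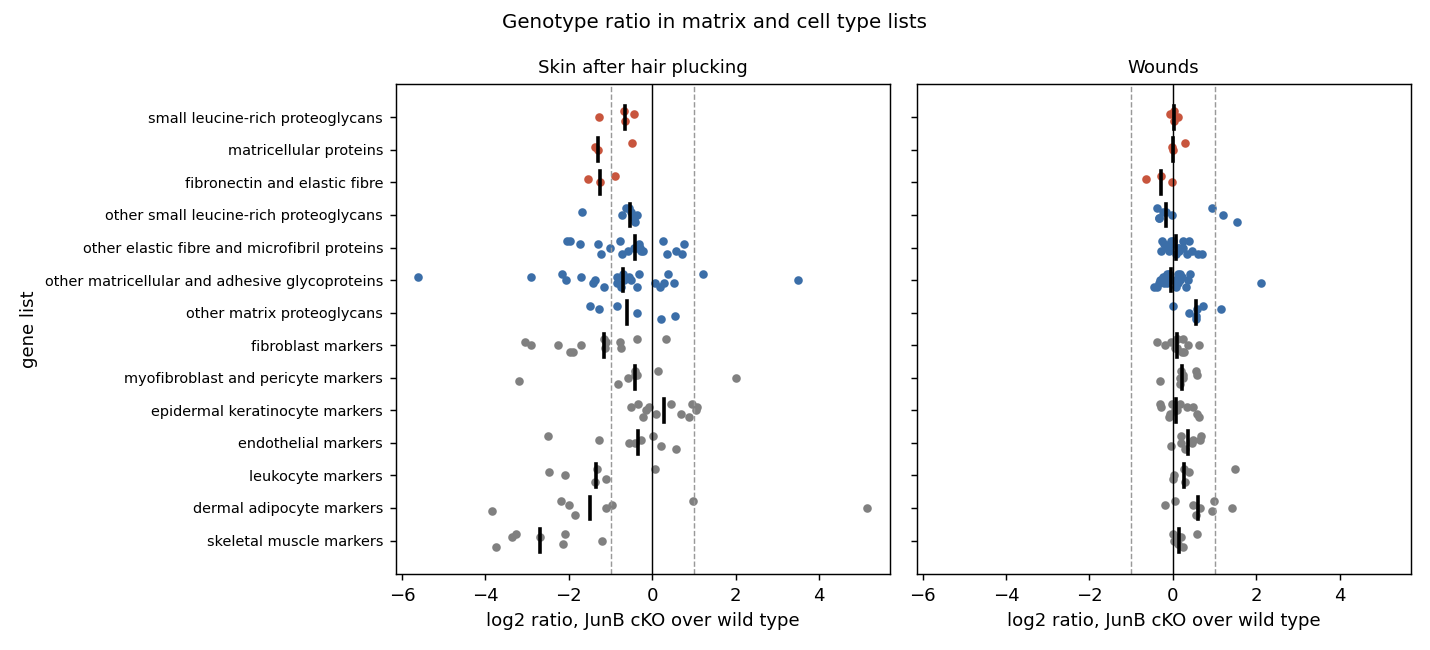
Log2 ratio of JunB cKO over wild type in plucked skin and wounds for the 10 genes by role (red), other matrix genes (blue) and cell type markers (grey), for expressed genes. Each point is a gene, bars are list medians and dashed lines mark 2-fold; after plucking the medians of the 10 genes by role lie between -1.31 and -0.67, and in wounds no list has a median past 2-fold.

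The genes whose log2(FPKM + 0.1) over the 6 columns was most like the median profile of the 10 were Fstl1 (Pearson r = 0.9998), a secreted relative of Sparc, Pdgfra (r = 0.9994), a growth factor receptor of fibroblasts, Prkd3 (r = 0.9994), Papolg (r = 0.9991) and C1qc (r = 0.9988), a complement subunit. Fstl1 was at 1.89 and 2.06 FPKM in wild type and JunB cKO keratinocytes, at 66.1 and 26.1 FPKM after plucking and at 194 and 192 FPKM in wounds. The 6 columns come from 3 tables that share 2 genotypes, and a high r rests mainly on the gap between the keratinocyte and skin samples, so r is given as a description. Each of the 10 genes itself had an r between 0.945 and 0.992 with that median profile.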

How the data were processed

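RNA was depleted of rRNA and sequenced as single-end stranded libraries. Per the paper, the authors mapped trimmed reads to GRCm38 (TopHat or HISAT2) and used Cufflinks for assembly and Cuffdiff for the comparison of genotypes. The deposited tables hold 1 FPKM value per genotype and locus, as computed by the authors; pooling of the wound libraries hides their spread. The deposited fold changes, p-values and q-values of the authors were not used, and the condition of 2 tables is given only by their names. The 10 genes and all gene lists were chosen with earlier results of these data known.

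Rows were matched by symbol, taking the locus with the largest summed FPKM where a symbol had several. Ratios were calculated with a pseudocount of 0.1, a 2-fold limit and a background of expressed loci (1 FPKM or more in one genotype or both), in lists too. Reads per FPKM were estimated from receptor loci of 880 to 1000 bases, whose FPKM times length falls on steps of 1 read, and the 95% intervals of ratios are Clopper-Pearson intervals on the reads estimated from transcript length. Identifiers are those of GENCODE M21 on GRCm38 (Dcn, ENSMUSG00000019929, chromosome 10, 97479609 to 97518143, plus strand; Postn, ENSMUSG00000027750, chromosome 3, 54361109 to 54391037, plus strand; Sparc, ENSMUSG00000018593, chromosome 11, 55394500 to 55423183, minus strand; Eln, ENSMUSG00000029675, chromosome 5, 134702593 to 134747323, minus strand).

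Named genes are the 10 genes, Junb, the highest gene and the extremes of each list of matrix genes, the first markers of a list and the 5 genes most like the median profile. Thy1, Retn, Mylpf, Chad, Podn, Ecm1 and Thbs1 were named after their values were seen. Alternatives were pseudocounts of 0.01 and 1, an FPKM minimum of 10 or none, centring on the median of loci with 1 FPKM or more in both genotypes, subtraction of the receptor gene median in keratinocytes, sums over loci, and a 1.5-fold limit. Calculations used Python 3.11.15 with pandas 2.3.3, numpy 2.4.6 and scipy 1.17.1, and were tested on simulated data.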

Additional observations from a re-analysis of the deposited data

Results flagged for a closer look

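Bgn, Eln and Fbn1 had values on opposite sides of wild type in 2 conditions, each past 2-fold. In unperturbed keratinocytes the log2 ratio of JunB cKO over wild type was 1.08 for Bgn, 2.22 for Eln and 1.67 for Fbn1, and after hair plucking it was -1.29, -1.53 and -1.24. The difference between the conditions was not tested, since each rests on 1 value per genotype. This order, higher in keratinocytes and lower after plucking, was seen for 4.43% of 21464 symbols listed in both conditions. Among the expressed ones, it was seen for 1 of 7 of the matrix genes and 2.44% of 11091 symbols. The reverse order and pairs with wounds, which would have been flagged too, are not in these shares. With the receptor gene median subtracted, none of the 3 genes was past 2-fold in keratinocytes (Bgn 0.98, Eln 0.46, Fbn1 0.041). Bgn was also inside 2-fold there with a pseudocount of 1 (0.92) and relative to the fibroblast markers (0.74).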

How the results depend on the processing

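No paired analysis was possible because the table of the wounds gives a single value per genotype and does not separate the numbered libraries, so fits with limma, with a replicate block or without 1 library were not run. Values relative to the fibroblast markers, the median and the count with the receptor gene median subtracted, and centred shares of loci were chosen after seeing the data.

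The unperturbed values depended most on the processing. Their median log2 ratio of 0.89 was 0.49 with a pseudocount of 1, 1.06 after centring, 0.54 relative to the fibroblast markers and 0.18 with the receptor median subtracted. The number of genes past 2-fold, 6, was 0 with a pseudocount of 1 and 2 with the receptor median subtracted, where Fmod, set to 0 in JunB cKO, turned to -1.22. After centring, Fn1 came to -0.96, so that 5 genes were higher and 0 lower by 2-fold. The share of loci past 2-fold, 24.5%, was 4.01% at an FPKM of at least 10 and 39.9% without a filter.

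After plucking, the median of -1.07 was 0.081 relative to the fibroblast markers, and the 5 genes past 2-fold were 0 relative to these markers and 8 at 1.5-fold. The share of loci, 40.0%, was 18.5% without a filter. In wounds, the 0 genes past 2-fold became 1 at 1.5-fold, and the share of loci, 16.6%, was 8.05% at an FPKM of at least 10, 10.9% with a pseudocount of 1 and 30.6% at 1.5-fold. The direction of all 10 genes after plucking was the same with either other pseudocount, centring and sums over loci.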
